A study of Malus domestica with 6 samples.

Results

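Triterpene cyclases and the cytochrome P450 gene CYP716A1 were followed in the outer skin (exocarp) of russeted and waxy apples. The genes were taken from the deposited table by annotation: a description holding "terpenoid cyclase" or "camelliol", or the symbol CAMS1, gave 6 cyclase gene models, and CYP716A1 (MDP0000440922) was added by its identifier, which made 7 of the 1261 gene models in the table. The study profiled the exocarp of Malus domestica by RNA sequencing in 3 fully russeted varieties, St Edmund Pippin, Reinette Parmentier and Patte de Loup, whose skin is rough and corky over the whole fruit, and in 3 fully waxy varieties, AG94, AF42 and Gala, whose skin is smooth. All fruit came from the orchards of 1 research centre in 1 season, and the labels name no treatment. With 1 library per variety, n = 3 per phenotype counts varieties, so that p values measure the spread between varieties, and effects of skin type and of other traits on which the phenotypes happen to differ cannot be told apart.

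Triterpenes are built from oxidosqualene, which a cyclase folds into a ring skeleton such as that of the amyrins or of lupeol. P450 enzymes of the CYP716A family then oxidise the skeleton, which gives triterpene acids. The wax of smooth apple skin is known to be rich in ursolic and oleanolic acid, whereas russeted skin is known to hold betulinic acid and its caffeate esters. Of the 6 cyclase models, 4 are matched in the table to the Arabidopsis gene AT1G78950, whose product makes beta-amyrin in Arabidopsis, and 2 to AT1G78955 (CAMS1), whose product makes camelliol C in that species. What the apple enzymes make is not annotated in the table, and gene positions are not given here.

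Every gene of the table was picked by the authors because it differed between the phenotypes in these libraries, so a call made here is no independent evidence of a difference. The libraries had 9.44 to 19.1 M mapped reads, and the count interval given below covers counting error only. Among the picked genes, 8 cuticle marker genes (such as CER1 and GPAT6) summed to 24.1 to 73.6 RPKM in russeted and 569 to 1370 RPKM in waxy exocarp. The 7 cork marker genes (such as CYP86A1 and GPAT5) summed to 89.8 to 363 RPKM in russeted and 5.79 to 37.3 RPKM in waxy exocarp. These sums cannot check the labelled phenotypes, since markers that did not differ could not be in the table. Of the listed markers of other cells in a peel, 4 phloem protein genes were in the table, with sums of 50.3 to 102 RPKM in russeted and 15.0 to 30.6 RPKM in waxy exocarp. The table had 0 marker genes of chlorenchyma or xylem, which does not show that such cells were absent. The part of phloem, chlorenchyma and xylem in the results was not tested. RPKM, in which reads are divided by the coding length of the gene and the depth of the library, is the authors' unit and lets levels of different genes be set side by side. In these bulk samples, fewer cells of a type and less RNA per cell cannot be told apart.

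In russeted exocarp 5 of the 6 cyclase genes rose, by 11.5 to 15.1 times in mean RPKM, and CYP716A1 fell to a mean of 54.1 RPKM, against 374 RPKM in waxy exocarp. The remaining cyclase, MDP0000227287, held nearly all RPKM of the 6 listed cyclases in waxy skin. It was lower in every russeted than in every waxy variety but did not pass the test. All 7 genes had enough reads to be tested. By edgeR's quasi-likelihood test with an adjusted p under 0.05, 5 of the 7 rose and 1 fell, where 19.2% of the 1246 genes tested rose and 9.31% fell, 28.5% in all. With TMM factors, a scaling that centres the listed genes on no difference, 4 of the 7 rose and 1 fell, where 3.44% of the genes tested rose and 23.8% fell. Under those factors the median log2 fold change of all tested genes was 0.19 in place of 1.19, and the 5 cyclases had log2 fold changes of 2.46 to 2.87. By a false discovery rate under 0.05 in the authors' deposited table, 0 of the 7 were higher and 2 lower (MDP0000227287 and CYP716A1), where 25.1% of all genes were higher and 10.8% lower. Russeted and waxy RPKM were apart in all 7 genes, as in 87.5% of the 1261 genes. In 5 the russeted values were all above the waxy ones (63.1% of all genes) and in 2 all below (24.3%), so the lack of overlap is nothing particular to these genes.

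**Figure D1:**
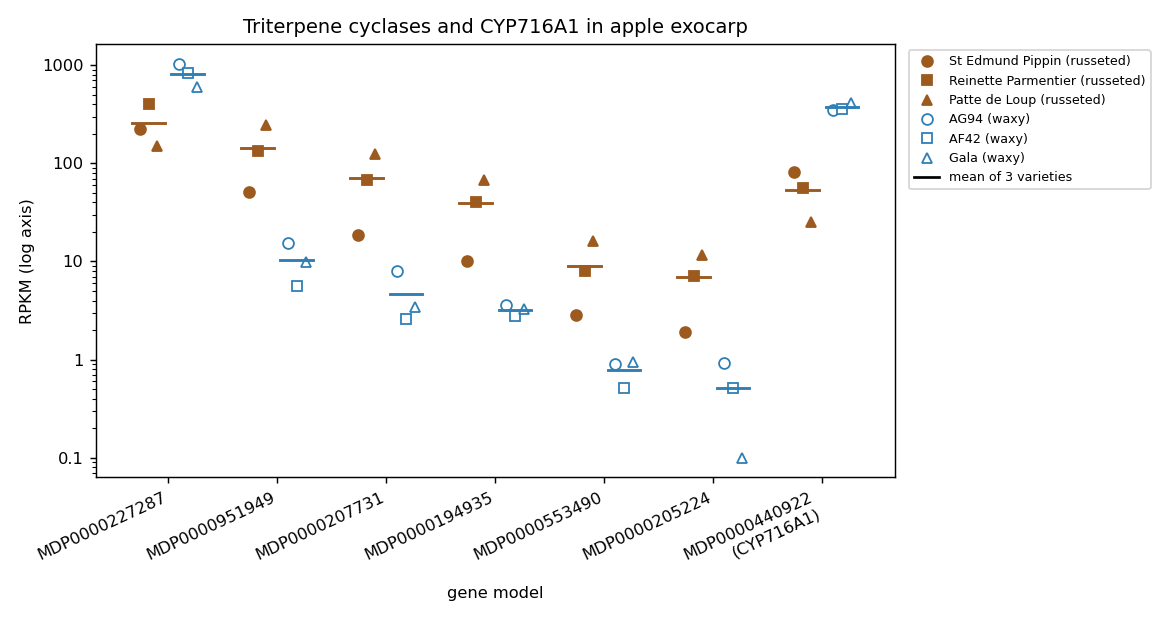
RPKM (log axis) of the 6 cyclase genes and CYP716A1 in each variety, with filled brown symbols for the russeted and open blue symbols for the waxy varieties, and a line at the mean of the 3 varieties. MDP0000227287 and CYP716A1 lie lower in all 3 russeted varieties, with means of 258 and 54.1 RPKM there and 822 and 374 RPKM in waxy exocarp, while the other 5 cyclases lie higher in all 3 russeted varieties.

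MDP0000227287 was the most abundant of the 6 listed cyclases in waxy skin. This gene model, matched to AT1G78950 and carrying the repeat domain of squalene and oxidosqualene cyclases (PF00432), has the longest coding sequence of the 6, with 2313 bases. It had 226 RPKM in St Edmund Pippin, 398 RPKM in Reinette Parmentier and 149.6 RPKM in Patte de Loup, against 1037 RPKM in AG94, 831 RPKM in AF42 and 599 RPKM in Gala. The lowest waxy value, in Gala, was 1.503 times the highest russeted value, in Reinette Parmentier. The mean was 258 ± 128 RPKM in russeted skin and 822 ± 219 RPKM in waxy skin (SD, n = 3 each). These values rest on 29420 reads in the russeted and 73436 in the waxy libraries, of which 95.1% mapped to this gene only. Even where it was lowest, MDP0000227287 ranked high among the listed genes, at place 52 of 1261 by RPKM in Patte de Loup. Its place was 16 in Reinette Parmentier and in AF42.

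The log2 fold change of MDP0000227287, russeted over waxy, was -1.67 ± 0.71 (SE) and did not pass the test with edgeR (adjusted p = 0.236). Whether it passed depended on the method: with DESeq2 the adjusted p was 0.0288 on mapped reads and 0.000317 with that tool's own size factors, with limma on log2(RPKM + 1) it was 0.0365, and adjusted over the tested genes of the table only it was 0.0457. Leaving out any 1 variety gave an adjusted p of 0.234 to 0.704 with edgeR. In the authors' deposited table MDP0000227287 has a false discovery rate of 0.0271 and a signed fold of -2.93 (negative where russeted exocarp is lower).

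The 5 cyclases that rose differ in level and in the length of their models. MDP0000951949, matched to CAMS1, was the most abundant of them, with 51.2 RPKM in St Edmund Pippin, 135 RPKM in Reinette Parmentier and 248 RPKM in Patte de Loup, against 15.5 RPKM in AG94, 5.60 RPKM in AF42 and 9.93 RPKM in Gala. Its lowest russeted value, in St Edmund Pippin, was 3.30 times its highest waxy value, in AG94. The mean was 145 ± 98.5 RPKM in russeted skin and 10.3 ± 4.97 RPKM in waxy skin (SD, n = 3 each), and the log2 fold change was 3.80 ± 0.68 (SE, edgeR adjusted p = 0.00592). Its model is 1227 bases long, 53.0% of the length of MDP0000227287, and 31.5% of its reads were unique to it.

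MDP0000207731, matched to AT1G78950, had 18.5 RPKM in St Edmund Pippin, 68.4 RPKM in Reinette Parmentier and 124 RPKM in Patte de Loup, against 7.92 RPKM in AG94, 2.59 RPKM in AF42 and 3.42 RPKM in Gala. Again Patte de Loup was highest and St Edmund Pippin lowest among the russeted varieties, and AG94 highest among the waxy ones. The log2 fold change was 3.90 ± 0.70 (SE, edgeR adjusted p = 0.00592). Its model has 588 bases, the shortest of the 6 with 25.4% of the longest, and is the only one of the 6 with no domain given in the table.

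MDP0000194935 is the longest model among the 5, with 2283 bases, and is matched to AT1G78950. It had 10.1 RPKM in St Edmund Pippin, 40.8 RPKM in Reinette Parmentier and 68.3 RPKM in Patte de Loup, against 3.58 RPKM in AG94, 2.80 RPKM in AF42 and 3.25 RPKM in Gala. Its waxy values lay close together, within 1.28 times of each other, while the russeted ones spread over 6.77 times. The log2 fold change was 3.63 ± 0.65 (SE, edgeR adjusted p = 0.00592).

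The least abundant of the 5 were MDP0000553490 (CAMS1 match, 2244 bases) and MDP0000205224 (AT1G78950 match, 2067 bases). MDP0000553490 had 2.83 RPKM in St Edmund Pippin, 8.09 RPKM in Reinette Parmentier and 16.2 RPKM in Patte de Loup, against 0.90 RPKM in AG94, 0.51 RPKM in AF42 and 0.94 RPKM in Gala, with a log2 fold change of 3.52 ± 0.66 (SE, edgeR adjusted p = 0.00687). MDP0000205224 had 1.92 RPKM in St Edmund Pippin, 7.09 RPKM in Reinette Parmentier and 11.7 RPKM in Patte de Loup, against 0.92 RPKM in AG94, 0.51 RPKM in AF42 and 0.10 RPKM in Gala. Both genes were near the detection limit in waxy skin: the waxy libraries held 66 reads of MDP0000553490 and 45 of MDP0000205224, and the Gala value of the second rests on 2 reads (exact Poisson 95% interval 0.012 to 0.36 RPKM). Its log2 fold change was 3.70 ± 0.78 (SE, edgeR adjusted p = 0.0123), and TMM factors put it above the threshold (adjusted p = 0.0565).

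The 5 genes shared much of their reads with other gene models, since 31.5% to 56.7% of their reads were unique to 1 gene, where the median of all listed genes was 93.6%. Their separate levels are uncertain to that extent, and how reads with several matches were placed is not given in the sources used here. Restricted to unique reads, their means were 10.7 to 16.5 times higher in russeted exocarp, close to the 11.5 to 15.1 times with all reads, and all 5 still rose. Median log2 fold change was 3.70 over the 5 genes and 1.19 over all 1246 genes tested. The size of the rise depended on single varieties: without Patte de Loup the 5 log2 fold changes were 2.79 to 3.20, in place of 3.52 to 3.90. Without AG94 the log2 fold change was 4.47 for MDP0000205224 and 4.54 for MDP0000207731. All 5 passed the test without any 1 variety. In the authors' deposited table the 5 genes have false discovery rates of 0.13 to 0.185, above those of MDP0000227287 (0.0271) and CYP716A1 (8.34e-40).

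CYP716A1 (MDP0000440922), the P450 gene of this group, was expressed at similar levels in the 3 waxy varieties. It had 80.9 RPKM in St Edmund Pippin, 56.2 RPKM in Reinette Parmentier and 25.3 RPKM in Patte de Loup, against 349 RPKM in AG94, 362 RPKM in AF42 and 411 RPKM in Gala. The waxy values lay within 1.18 times of each other, with an SD of 0.12 on the log2 scale where the median of all listed genes was 0.59, and the russeted values spread over 3.20 times. The mean was 54.1 ± 27.9 RPKM in russeted skin and 374 ± 32.7 RPKM in waxy skin (SD, n = 3 each). The log2 fold change was -2.79 ± 0.64 (SE, edgeR adjusted p = 0.0173). It no longer passed when Reinette Parmentier (adjusted p = 0.0718) or Patte de Loup (0.0664) was left out. Of its reads 74.1% were unique, and with unique reads alone the log2 fold change was -2.97.

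The make-up of the cyclase transcripts differed between the phenotypes. MDP0000227287 held 72.8% of the summed cyclase RPKM in St Edmund Pippin, 60.6% in Reinette Parmentier and 24.2% in Patte de Loup, against 97.3% in AG94, 98.6% in AF42 and 97.1% in Gala. In Patte de Loup MDP0000951949 alone stood above it with all reads, an order that turned with unique reads, which gave 143 RPKM for MDP0000227287 and 78.1 RPKM for MDP0000951949. In that library 95.6% of the reads of MDP0000227287 were unique and 31.6% of those of MDP0000951949. Dropping shared reads thus lowers MDP0000951949 more and raises the share of MDP0000227287. With unique reads the share of MDP0000227287 in Patte de Loup was 42.1%. In the other 5 libraries MDP0000227287 was the most abundant of the listed cyclases. The share averaged 52.5 ± 25.2% in russeted and 97.7 ± 0.79% in waxy exocarp (SD, n = 3 each), and with unique reads alone 68.4 ± 23.0% in russeted and 99.0 ± 0.36% in waxy exocarp. No test is given for these shares, since the genes were chosen with earlier results of these data known.

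**Figure D2:**
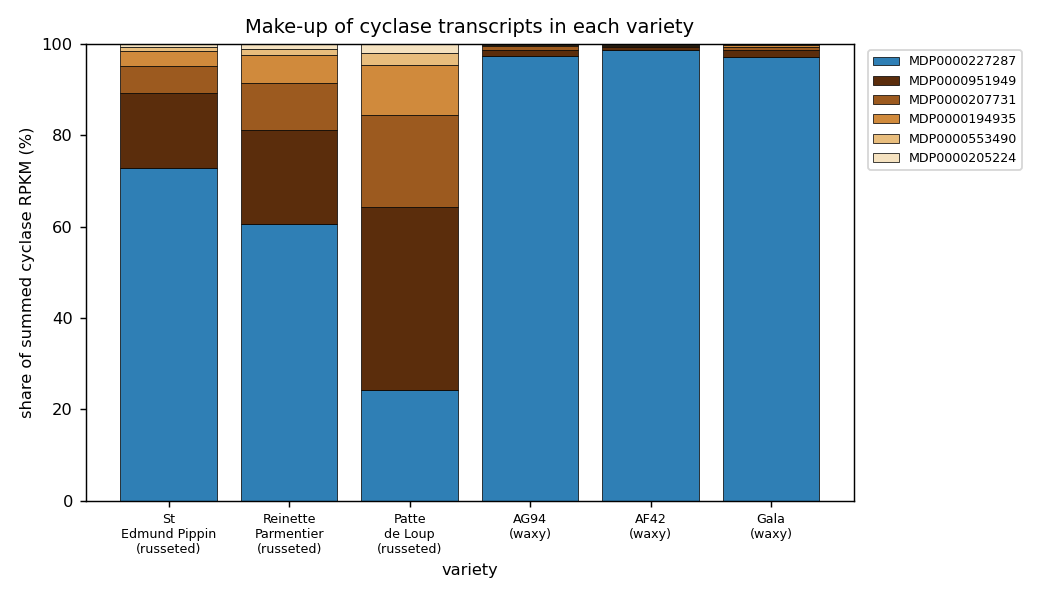
Share of the summed RPKM of the 6 cyclase genes (%) held by each gene in each variety, russeted varieties at the left and waxy ones at the right. MDP0000227287 (blue) holds 24.2% to 72.8% in the russeted and 97.1% to 98.6% in the waxy varieties.

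The sum of the 6 cyclases overlapped between the phenotypes. It came to 310 RPKM in St Edmund Pippin, 658 RPKM in Reinette Parmentier and 617 RPKM in Patte de Loup, against 1066 RPKM in AG94, 843 RPKM in AF42 and 617 RPKM in Gala. Reinette Parmentier and Patte de Loup thus stood as high as Gala, where nearly all of the sum came from MDP0000227287. Since models of unequal length share reads, this sum depends on the models. With unique reads alone it was 252, 485 and 340 RPKM in the russeted varieties, in the same order. It was 993, 799 and 581 RPKM in the waxy ones, with no overlap. Unique reads, still divided by the full coding length, were 31.5% to 56.7% of all reads in the 5 risen cyclases. In MDP0000227287 they were 95.1%. Dropping shared reads thus lowers the russeted sums more, and neither sum settles whether the phenotypes overlap.

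CYP716A1 was also lower in relation to the listed cyclases in every russeted than in every waxy variety. Its RPKM was 0.26 times the summed cyclase RPKM in St Edmund Pippin, 0.085 times in Reinette Parmentier and 0.041 times in Patte de Loup, against 0.33 times in AG94, 0.43 times in AF42 and 0.67 times in Gala. Set against MDP0000227287 alone, the phenotypes overlapped, with ratios of 0.36, 0.14 and 0.17 in the same 3 russeted varieties and 0.34, 0.44 and 0.69 in the waxy ones.

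The russeted varieties differed among themselves more in the 5 risen cyclases than in most genes of the table. All 5 risen cyclases were lowest in St Edmund Pippin, intermediate in Reinette Parmentier and highest in Patte de Loup, an order that 21.8% of all listed genes had. Against St Edmund Pippin the 5 genes stood 2.64 to 4.05 times higher in Reinette Parmentier and 4.83 to 6.77 times higher in Patte de Loup, where the median ratio of all listed genes was 0.98 and 1.11. Their SD of log2 RPKM over the russeted varieties was 1.15 to 1.43, against a median of 0.54 for all listed genes. Across the 6 libraries the 5 genes ran closely together, with Pearson's r of log2(RPKM + 1) of 0.96 to 1.00 in their 10 pairs, a description over genes that share reads and that all differ between the phenotypes.

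CYP716A1 had the reverse order, highest in St Edmund Pippin at 21.6% of its waxy mean, then Reinette Parmentier at 15.0% and Patte de Loup at 6.75%, as did 14.8% of all listed genes. MDP0000227287 followed neither order: it stood at 27.5% of its waxy mean in St Edmund Pippin, 48.5% in Reinette Parmentier and 18.2% in Patte de Loup. The 7 cork marker genes all had the order of the 5 cyclases. They summed to 89.8 RPKM in St Edmund Pippin, 201 RPKM in Reinette Parmentier and 363 RPKM in Patte de Loup, against 37.3 RPKM in AG94, 10.7 RPKM in AF42 and 5.79 RPKM in Gala. AG94 was thus the waxy variety with the highest sum of cork markers and also of the 5 cyclases (28.8 RPKM in AG94, 12.01 RPKM in AF42 and 17.6 RPKM in Gala). The sum of the 4 phloem protein genes also had this order in russeted exocarp. It was 50.3 RPKM in St Edmund Pippin, 70.0 RPKM in Reinette Parmentier and 102 RPKM in Patte de Loup. PP2-A1 and PP2-A9 had the order singly and the models of PP2-A12 did not. In waxy exocarp AG94 had the lowest phloem sum, 15.0 RPKM. The part of cork tissue or phloem in the levels of the 5 cyclases was not tested.

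**Figure D3:**
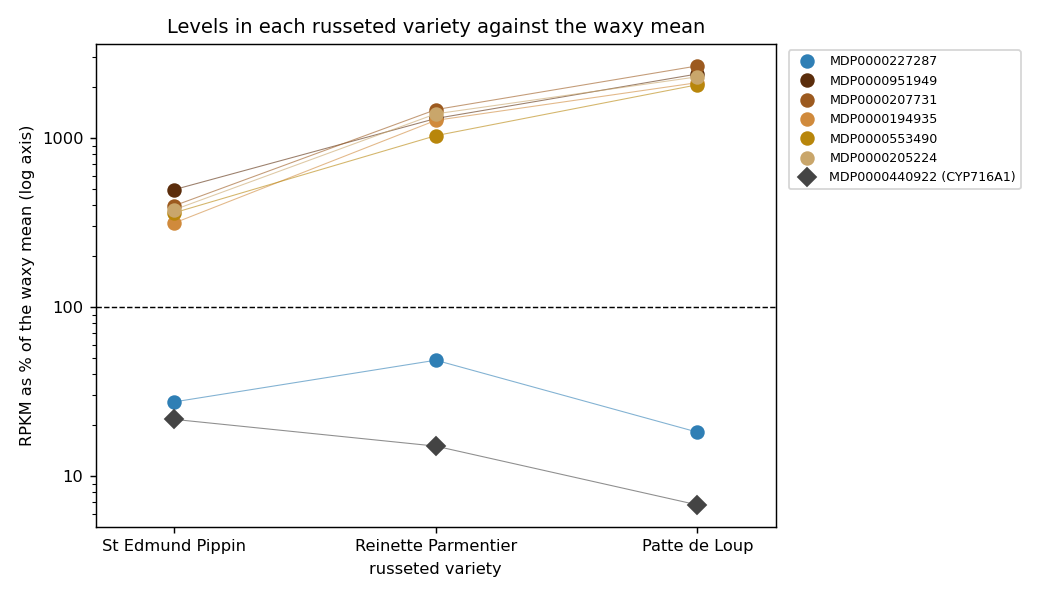
RPKM of each gene in the 3 russeted varieties as a percentage of its mean in the waxy varieties (log axis), with thin lines joining the values of 1 gene and a dashed line at the waxy mean of 100%. The 5 risen cyclases lie between 314% and 2671% and are highest in Patte de Loup, and CYP716A1 lies between 6.75% and 21.6% and is lowest there.

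The genes whose pattern over the 6 libraries was most like that of each gene were named by Pearson's r of log2(RPKM + 1), as a description. Closest to MDP0000227287 were MDP0000274850 (r = 0.99) and MDP0000270727 (r = 0.98), which carry no description in the table, and an ABC-2 type transporter gene, MDP0000094058 (r = 0.98). The transporter gene had a mean of 5.40 RPKM in russeted skin and of 126 RPKM in waxy skin. Both undescribed genes were lower in russeted exocarp as well, with means of 47.0 and 31.5 RPKM there and 754 and 695 RPKM in waxy exocarp. All 3 genes fell with edgeR (adjusted p = 0.0177 for MDP0000274850, 0.0145 for MDP0000270727 and 0.00393 for MDP0000094058). Closest to MDP0000951949 were SPDS3 (MDP0000788247, r = 1.00), the cyclase MDP0000207731 (r = 0.99) and a RING/FYVE/PHD zinc finger gene, MDP0000192967 (r = 0.99). SPDS3, described as a spermidine synthase and also given the symbol SPMS, had means of 9.60 RPKM in russeted skin and 3.18 RPKM in waxy skin. Neither SPDS3 nor the zinc finger gene passed the test (edgeR adjusted p = 0.106 and 0.111). The 3 genes closest to CYP716A1 were MDP0000139977, MDP0000350622 and MDP0000740656 (r = 0.99 each), which have no description. None of them passed the test (edgeR adjusted p = 0.0596, 0.0926 and 0.115). High values of r are common in this table, as 62 genes exceeded 0.9 with MDP0000227287, 209 with MDP0000951949 and 86 with CYP716A1, since all were selected for a difference between the same 6 libraries.

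The listed genes that supply the cyclases with substrate had lower values in russeted exocarp as well. A list of Arabidopsis matches from acetyl-CoA to squalene epoxide had 10 gene models in the table. These models belong to the thiolase, mevalonate kinase, mevalonate diphosphate decarboxylase, isomerase, farnesyl diphosphate synthase and squalene epoxidase steps. Other steps of the list, such as squalene synthase, had no model among the picked genes, so their levels are not known here. The values below therefore describe the 10 models and not the whole pathway. All 10 had lower RPKM in every russeted than in every waxy variety, as had 24.3% of all listed genes. Their log2 fold changes lay between -2.55 and -1.33 with a median of -1.56, where the median of all tested genes was 1.19 and 26.2% were below 0. With edgeR, 1 of the 10 fell, where 9.31% of all tested genes did, and 9 did not pass the test (adjusted p = 0.0517 to 0.288). The count depended on the scaling and the tool: 9 of 10 fell with TMM factors (23.8% of all tested genes). With DESeq2, 10 fell on its own size factors (322 of all 1261 genes) and 8 on mapped reads (266). With limma on log2(RPKM + 1) 3 fell (154 of 1261), and without a filter on low counts 2 fell (119 of 1261). Adjusted over the tested genes of the table only, 9 fell (290 of 1246).

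The gene that fell was a squalene epoxidase gene, SQE1 (MDP0000191389), whose product makes the oxidosqualene that the cyclases fold. It had 1.16 RPKM in St Edmund Pippin, 1.19 RPKM in Reinette Parmentier and 0.51 RPKM in Patte de Loup, against 3.93 RPKM in AG94, 4.49 RPKM in AF42 and 8.44 RPKM in Gala (log2 fold change -2.55 ± 0.59, SE, edgeR adjusted p = 0.0176). Leaving out St Edmund Pippin (edgeR adjusted p = 0.0537), Reinette Parmentier (0.0646) or Patte de Loup (0.0929) ended the call. In these fits 0 of the 10 fell, where 67 of 1253, 73 of 1247 and 71 of 1240 tested genes fell, in the same order. Leaving out Gala gave 2 that fell (101 of 1256 tested genes). The second SQE1 model, MDP0000260827, was more abundant and just missed the threshold. It had 0.76 RPKM in St Edmund Pippin, 5.23 RPKM in Reinette Parmentier and 5.76 RPKM in Patte de Loup, against 32.9 RPKM in AG94, 18.2 RPKM in AF42 and 9.10 RPKM in Gala (log2 fold change -2.35 ± 0.67, SE, edgeR adjusted p = 0.0517, and 0.0179 without Gala).

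The earlier steps with a model in the table were abundant in both phenotypes. The acetoacetyl-CoA thiolase gene ACAT2 (MDP0000231084), of the first step, had a mean of 349 ± 156 RPKM in russeted exocarp, against 989.8 ± 136 RPKM in waxy exocarp (SD, n = 3 each). Mevalonate kinase (MDP0000025413) had 42.1 ± 13.4 RPKM in russeted skin and 128 ± 47.1 RPKM in waxy skin. The GHMP kinase family genes MDP0000232665 and MDP0000156057, matched to a mevalonate diphosphate decarboxylase gene of Arabidopsis, had 44.9 ± 13.8 and 57.0 ± 26.2 RPKM in russeted and 142 ± 62.3 and 159 ± 35.0 RPKM in waxy exocarp. The isomerase gene IPP1 (MDP0000198327) had 54.9 ± 29.9 RPKM in russeted skin and 138 ± 41.1 RPKM in waxy skin. The 3 models of FPS1, the farnesyl diphosphate synthase gene, had 41.2 ± 24.4 RPKM in russeted skin and 139 ± 34.6 RPKM in waxy skin for MDP0000140046, 52.0 ± 36.1 and 148 ± 34.7 RPKM for MDP0000857061, and 30.0 ± 5.34 and 78.9 ± 17.1 RPKM for MDP0000299402. None of these 8 genes passed the test with edgeR, and 4 of the 10 models had under 50% unique reads, the lowest being 6.46% in MDP0000299402.

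**Figure D4:**
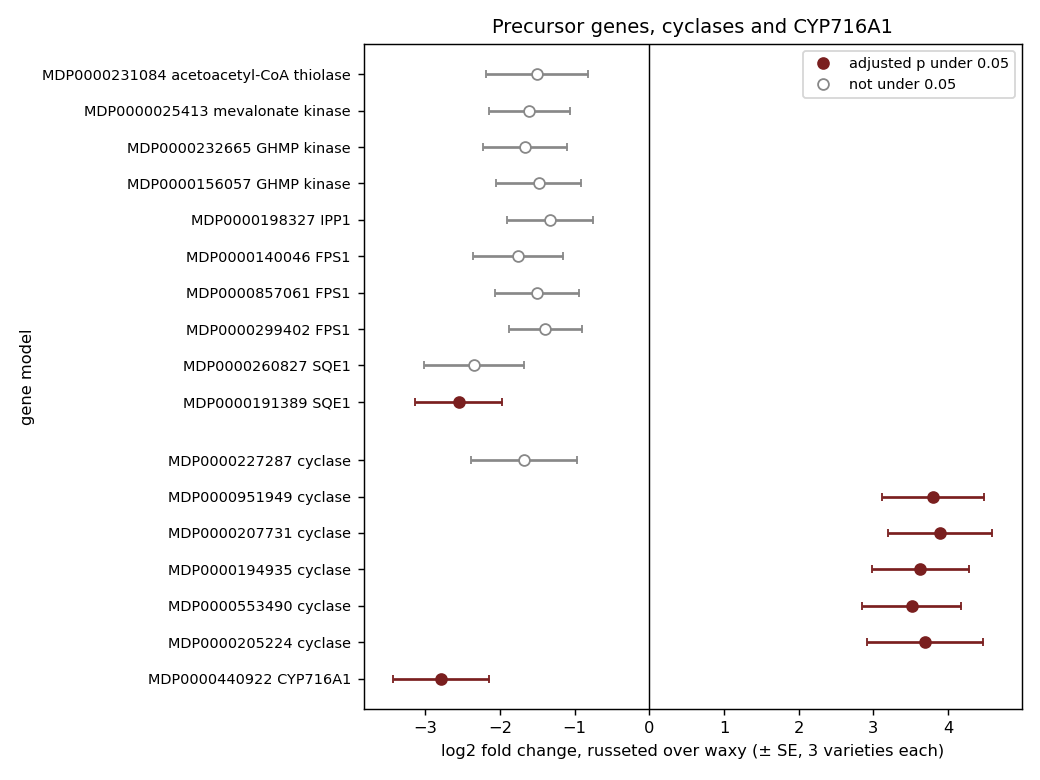
Log2 fold change of russeted over waxy exocarp with its SE (edgeR, 3 varieties per phenotype) for the 10 precursor genes in the order of the pathway, the 6 cyclases and CYP716A1, with filled symbols at an adjusted p under 0.05. The precursor genes, MDP0000227287 and CYP716A1 lie below 0, between -2.79 and -1.33, and the other 5 cyclases lie between 3.52 and 3.90.

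Among the russeted varieties the precursor genes were lowest in Patte de Loup in 8 of 10 cases, with a median of 17.4% of their waxy mean, and stood at a median of 39.4% in St Edmund Pippin and 40.0% in Reinette Parmentier. Patte de Loup was also the variety in which MDP0000227287 and CYP716A1 were lowest and the 5 risen cyclases highest. The list of sterol synthesis genes, the other use of oxidosqualene, had 0 members in the table. Sterol genes that did not differ between the phenotypes could not be in it, so their levels are not known here. The words for other terpene synthases found only TPS9 (MDP0000258781), a trehalose phosphate synthase gene and no terpene synthase (19.7 ± 5.87 RPKM in russeted skin and 10.3 ± 4.41 RPKM in waxy skin, edgeR adjusted p = 0.463).

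More of the other P450 genes rose than fell, a balance that turned under TMM factors, and both hold for the table as a whole. Of 14 tested, 7 rose, 1 fell and 6 did not pass the test with edgeR, beside 19.2% of all tested genes that rose and 9.31% that fell, with a median log2 fold change of 2.00 beside 1.19 for all tested genes. TMM factors gave 1 that rose and 2 that fell (3.44% and 23.8% of all tested genes). Unique reads alone gave 7 and 0 of the 13 tested there, beside 187 and 104 of all 1217 genes tested. Leaving out Patte de Loup gave 3 that rose and 0 that fell (134 and 71 of 1240 tested genes). Leaving out St Edmund Pippin or Reinette Parmentier also gave 0 that fell (67 of 1253 and 73 of 1247 tested genes), and leaving out AF42 gave 2 (105 of 1257). The 2 risen with the smallest p were both models of CYP86B1, a suberin omega-hydroxylase gene in Arabidopsis that is also in the cork marker list, with log2 fold changes of 4.58 ± 0.77 (MDP0000306273, adjusted p = 0.00393) and 2.85 ± 0.58 (MDP0000234292, adjusted p = 0.0105). Without AG94 the value for MDP0000306273 was 6.27, and MDP0000234292 did not pass with TMM factors (adjusted p = 0.0741). The gene that fell was CYP707A3 (MDP0000297584), which encodes an abscisic acid hydroxylase in Arabidopsis (log2 fold change -2.90 ± 0.64, SE, edgeR adjusted p = 0.0149). Its russeted level was low, at 1.53 RPKM in St Edmund Pippin, 1.46 RPKM in Reinette Parmentier and 0.20 RPKM in Patte de Loup. Such low values limit the precision of the fold. In waxy exocarp CYP707A3 had 12.85 RPKM in AG94, 3.97 RPKM in AF42 and 6.62 RPKM in Gala. It missed the threshold when St Edmund Pippin (adjusted p = 0.0619), Reinette Parmentier (0.0528) or Patte de Loup (0.0641) was left out, and its log2 fold change was -2.31 without AG94.

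UDP-glycosyltransferase genes, whose products attach sugars to triterpenes and to many other small molecules, were 13 among the genes tested. Of these 4 rose, 1 fell and 8 did not pass the test, where 19.2% of all tested genes rose and 9.31% fell, so that the single fall is near the background of this test. TMM factors, with 14 tested, gave 0 that rose and 6 that fell (3.44% and 23.8% of all tested genes). Unique reads alone gave 4 and 0 of 13 (187 and 104 of all 1217 genes tested). DESeq2 gave 3 and 6 of 14 on its own size factors (111 and 322 of all 1261 genes) and 6 and 5 of 14 on mapped reads (547 and 266). The counts were 4 and 4 of 14 with limma on log2(RPKM + 1) (206 and 154 of all 1261 genes). Adjusted over the tested genes of the table only, they were 5 and 5 of 13 (597 and 290 of 1246). Of the glycosyltransferase genes 1 of 14 rose without St Edmund Pippin (153 of 1253 genes) and 2 of 13 without Reinette Parmentier (135 of 1247). Without AF42, 2 of 14 rose and 2 fell (194 and 105 of 1257 genes). Without AG94, 6 of 14 rose (182 of 1250 genes). The 2 risen with the smallest p, MDP0000135162 and MDP0000292218, are both matched to UGT85A1, with log2 fold changes of 2.85 ± 0.63 (edgeR adjusted p = 0.0146) and 2.98 ± 0.67 (0.0164). The first lost its call without Reinette Parmentier (edgeR adjusted p = 0.0591) and the second without St Edmund Pippin (0.0856), and neither passed with TMM factors (0.136 and 0.130). The log2 fold change of MDP0000135162 was 3.73 without AG94. The gene that fell, MDP0000222559, had a log2 fold change of -2.50 ± 0.48 (edgeR adjusted p = 0.00749), and 7.50% of its reads mapped to it alone.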

How the data were processed

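Exocarp RNA of 6 varieties was sequenced from poly(A) libraries with a kit that does not mark strand, per the labels' protocols. A single table of 1261 genes was deposited. It came from CLC Genomics Workbench 6.5, per the file headers. The genome build, like the settings of the aligner, is not given in the sources used here. Total and unique gene reads are the deposited counts. The authors also deposited RPKM values and their means, a signed fold (a score), its log2, and the p-value and false discovery rate of Baggerley's test, per the file headers. All gene lengths were multiples of 3, and length here means coding length.

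Reads, length and RPKM gave the mapped reads of a library (median over genes with at least 200 reads), which served as library sizes. The two-sided quasi-likelihood test of edgeR 4.0.16 (R 4.3.3) was run on total reads of 1246 genes that passed its low-count filter. Benjamini-Hochberg adjustment ran over 6449 genes, the number behind the authors' rate, at a threshold of 0.05. The SE is the log2 fold change divided by the square root of F. Alternatives used DESeq2 1.42.0 and limma 3.58.1.

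Members, lists and tests were chosen with earlier results of these data known. Named genes were all members, all precursor genes, up to 2 risen and 2 fallen P450 and glycosyltransferase genes with the smallest p, and the 3 genes most like MDP0000227287, MDP0000951949 and CYP716A1 by Pearson's r. MDP0000227287 is the most abundant of the listed cyclases in either phenotype by its mean, so the next, MDP0000951949, stood for russeted exocarp. Replicates are varieties. The RefSeq gene table held 0 of the identifiers.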

Additional observations from a re-analysis of the deposited data

How the results depend on the processing

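All 7 genes kept the direction of their fold change under the 15 alternatives each. The number of members that rose was 5 under each alternative but TMM factors (4). The number that fell was 1 in the main test, 2 with DESeq2 (either size factors), with limma on log2(RPKM + 1) and when adjusted over the tested genes of the table only, where MDP0000227287 was added, and 0 to 1 when 1 variety was left out. Over all genes, 239 rose and 116 fell (67.3% higher among those called). With TMM factors 43 rose and 297 fell, and 12.6% of those called were higher. Under these factors the median of all tested log2 fold changes was 0.19, against 1.19 in the main test. With DESeq2's own size factors 111 rose and 322 fell, with DESeq2 on mapped reads 547 and 266, and adjusted over the tested genes of the table only 597 and 290. Leaving out 1 variety gave 134 to 194 risen and 67 to 105 fallen genes, and each such fit had fewer libraries. For the share of MDP0000227287 in waxy exocarp, unique reads gave 99.0% in place of 97.7%. Apart from these constructions, the cause of the shifts was not tested.

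The replicate numbers in the titles count varieties and do not pair them: deviations of same-numbered libraries from their phenotype means correlated at -0.08, -0.02 and -0.11. With the replicate number as a block 209 genes rose and 110 fell, with 5 and 1 among the 7 genes, so no call of theirs changed. The lowest read numbers, 2 to 34 per waxy library for MDP0000553490 and MDP0000205224, limit the precision of those folds.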
